A study of Mus musculus with 401 samples.

Results

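The receptors through which gonadotropins, estrogen and progesterone act on the follicle, and the orphan nuclear receptors of the NR5A family, were followed in fully grown mouse follicles. They are the 7 genes Fshr, Lhcgr, Esr1, Esr2, Pgr, Nr5a1 and Nr5a2, named by symbol, and each of them was found in the count tables of both sets of samples, among 43633 genes in all. RamDA-seq, which copies total RNA along the whole transcript, was used on cumulus-oocyte complexes, each taken from 1 fully grown follicle. An oocyte library held 1 oocyte at the germinal vesicle stage. A cumulus library held the cumulus cells of 1 complex, as a pool. The mice were B6D2F1 females, the cross of C57BL/6 and DBA/2. In the first set, young mice were 2 months old, middle mice 9 months and old mice 14 months, with food ad libitum, and the CR mice were 9 months old and had been kept on calorie restriction. All mice of the first set were hyperovulated. In the second set, hyperovulated mice fed ad libitum were 2, 4, 9 and 14 months old, and the mice called NoH were 2 months old and fed ad libitum, but were not hyperovulated. Hyperovulation used either equine chorionic gonadotropin, which acts like FSH in mice, or CARD HyperOva, which joins it with antiserum against inhibin, and no label gives the agent of a mouse. All ovaries were collected into medium with IBMX, an inhibitor of the enzymes that break down cAMP. Several complexes came from 1 mouse, so the mouse label was the unit of comparison, and 1 label of the first set, Old1_2, joined animals. The labels do not say whether mice of a group were handled on separate days. Since each cumulus library is a pool, fewer cells of a type and less RNA per cell cannot be told apart.

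One complex of the first set was left out before any comparison, since its oocyte library had a correlation of 0.733 with the mean oocyte library and 0.933 with the mean cumulus library. This left 144 libraries of the first set, and the second held 255. The median total per cumulus library was between 854688 and 883093 counts in the groups of the second set, and between 1091806 and 2019007 in the first set, where the CR libraries were deepest. The oocyte libraries had medians of 1986202 to 2270752 counts in the second set and of 2209914 to 3578882 in the first. The labelled cell types were checked against their markers. The 12 cumulus and granulosa markers together had a median of 11700 CPM (counts scaled to the library total) in NoH cumulus libraries and of 16600 to 17700 CPM in the hyperovulated groups of the second set, led by Gja1, a gap junction gene. Of 12 oocyte markers, 10 were at a median of 0 in the cumulus libraries of every group, with Kit as the highest of the others. The oocyte libraries were led by Gdf9, and those of hyperovulated mice at 2 months held 46.5 CPM of the cumulus markers in sum. In the first set that sum was higher, with a median of 133 CPM in young and 678 CPM in old oocyte libraries.

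Follicle-stimulating hormone (FSH) binds FSHR on granulosa cells and raises cAMP, which drives growth of the follicle and synthesis of estradiol. Luteinizing hormone (LH) binds LHCGR, which in the mature follicle is known from theca and mural granulosa cells, while cumulus cells carry little of it. Estradiol acts through the nuclear receptors ESR1 and ESR2, of which ESR2 is the form known from granulosa cells and ESR1 the form known from theca and stroma, and PGR, the progesterone receptor, is known to appear in mural granulosa cells after the LH surge. NR5A1, also called SF-1, and NR5A2, also called LRH-1, bind DNA as single molecules and are known to drive genes of steroid synthesis such as Cyp19a1, which encodes aromatase.

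The starts of these genes differed in their letters. The 250 bases before the start of transcription are shown for 4 receptors whose window held motif matches, taken from RefSeq for GRCm38.p6 and written 5′ to 3′ on the strand of the gene. Capitals mark the matches to 6 motifs searched on both strands: the E-box CACGTG, to which USF proteins bind, the nuclear receptor half-site AGGTCA, the NR5A site CAAGGNCA, the cAMP response element TGACGTCA, the GC box GGGCGG and the GATA site AGATAA, which reads TTATCT on the other strand. Where N is T, a match to the NR5A site overlaps the half-site.

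Fshr, chr17:89200676-89200925, minus strand: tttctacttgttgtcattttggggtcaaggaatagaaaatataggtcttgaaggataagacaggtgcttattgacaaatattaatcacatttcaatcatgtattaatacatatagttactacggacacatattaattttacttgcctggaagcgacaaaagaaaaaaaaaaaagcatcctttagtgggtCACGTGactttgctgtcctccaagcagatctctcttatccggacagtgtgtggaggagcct

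Esr2, chr12:76177260-76177509, minus strand: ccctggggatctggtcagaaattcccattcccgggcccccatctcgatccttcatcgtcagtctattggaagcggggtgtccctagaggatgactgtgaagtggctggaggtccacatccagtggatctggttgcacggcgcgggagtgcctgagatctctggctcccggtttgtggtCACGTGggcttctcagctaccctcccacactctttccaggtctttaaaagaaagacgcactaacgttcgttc

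Lhcgr, chr17:88792015-88792264, minus strand: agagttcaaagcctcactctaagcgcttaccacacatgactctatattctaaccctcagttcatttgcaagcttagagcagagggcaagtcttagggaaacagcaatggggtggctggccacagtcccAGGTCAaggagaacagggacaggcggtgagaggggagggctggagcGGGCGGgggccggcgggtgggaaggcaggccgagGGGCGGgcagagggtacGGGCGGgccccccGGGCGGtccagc

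Nr5a2, chr1:136960449-136960698, minus strand: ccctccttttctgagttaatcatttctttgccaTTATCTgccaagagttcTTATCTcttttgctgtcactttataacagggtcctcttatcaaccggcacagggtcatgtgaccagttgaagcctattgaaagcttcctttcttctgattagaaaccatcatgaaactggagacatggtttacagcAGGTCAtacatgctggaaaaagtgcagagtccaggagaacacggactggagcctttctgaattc

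Fshr and Esr2 each held 1 E-box, which began 61 and 72 bases before the start and was found in 6.02% of 32851 windows of the same length. The Lhcgr window was rich in GC, at 63.2%, and held 4 GC boxes, whereas the Fshr window had a GC content of 36.8% and none, and 32.7% of all windows held at least 1. A nuclear receptor half-site stood 122 bases before the start of Lhcgr and 64 bases before that of Nr5a2, against 14.0% of all windows. Nr5a2 also held GATA letters at 217 and 200 bases, against 9.99%. The NR5A site, found in 5.53% of all windows, and the cAMP response element, found in 1.55%, were in none of these 4 windows. Among the windows not shown, that of Pgr held 1 GC box, and both windows of Esr1 and a second window of Nr5a2 held none of the 6 motifs. Such matches describe letters, and binding was not measured. The genes lie on GRCm38 at chr17:88984952-89200675 (Fshr), chr17:88716481-88791990 (Lhcgr), chr10:4611593-5005614 (Esr1), chr12:76120419-76177259 (Esr2), chr9:8899833-8968611 (Pgr), chr2:38692656-38714542 (Nr5a1) and chr1:136842571-136960448 (Nr5a2). None of their exons shared a base with another annotated gene. Some counts of Esr2 and Nr5a2 include reads that mapped to more than 1 place and were shared by the authors' counting. Of the nonzero values, 54.7% to 77.5% for Esr2 and 29.1% to 44.5% for Nr5a2 were not whole. A single shared read is enough for this, so the share of such reads is not known. The levels of Esr2 and Nr5a2 are less certain than those of Fshr, Lhcgr and Pgr, whose counts were whole.

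Compared per length, with the lengths behind the deposited RPKM values, Esr2 had the highest mean of the receptors in cumulus cells and Pgr the lowest. In hyperovulated mice at 2 months (5 mice), Esr2 had a mean of 126 CPM per kb, Nr5a2 93.3, Fshr 65.1, Nr5a1 45.6 and Esr1 6.80, while Lhcgr was at 0.507 and Pgr at 0.0253 CPM per kb. These are means over mice of the median of a mouse's libraries. The ranges over mice overlapped between Esr2 and Nr5a2, between Nr5a2 and Fshr, between Fshr and Nr5a1 and between Lhcgr and Pgr, whereas Esr1 lay apart from Nr5a1 above it and from Lhcgr below it. Within mice, Esr2 was above Nr5a2 in all 5, and in the 8 NoH mice as well, although the ranges overlapped there too, while each of the other overlapping pairs kept its order in 4 of the 5 mice. In CR mice Esr2 was above Nr5a2 in 1 of 3 mice only, with means of 106 and 102 CPM per kb. The length behind the RPKM of Lhcgr, 2553 bases, is shorter than the 7645 exonic bases of the later annotation, with which its level per kb would be lower still. The same order was found in the means of the other groups, except the middle mice, in which Lhcgr came before Esr1 through 1 mouse of 4, Middle4. Pgr was close to undetected. It gave 65 counts in 42 of 128 cumulus libraries of the second set and 24 counts in 13 of 71 of the first, and in oocytes it gave 0 counts over 265304981 in the 127 libraries of the second set, where 3 counts would be 0.0113 CPM. In the 73 oocyte libraries of the first set it gave 11 counts, all in 1 library of the label Old1_2 (5.11 CPM), more counts than in any single cumulus library, of which the highest had 5. Such limits cover counting error only, since the reads carry no molecular identifiers.

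**Figure D1:**
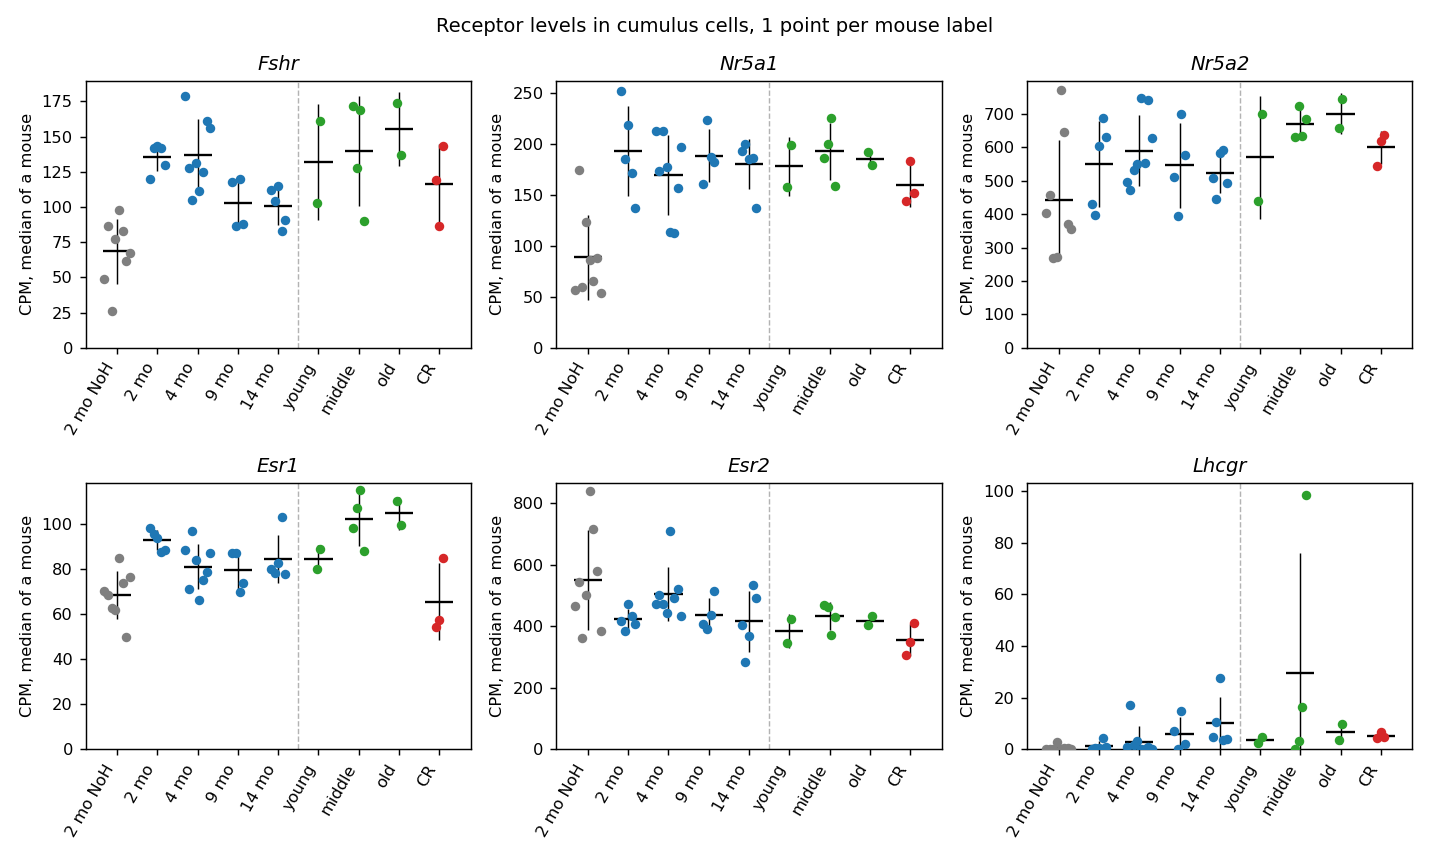
Levels of 6 receptors in cumulus cells, in CPM on TMM library sizes. Each point is the median over the libraries of 1 mouse label, horizontal lines are group means and vertical lines their SD, stopped at 0, with the second set left of the dashed line and the first set right of it. Fshr and Nr5a1 were at means of 68.5 and 88.9 CPM in NoH mice and of 135 and 193 CPM in hyperovulated mice of the same age, and Lhcgr reached 98.3 CPM in 1 middle mouse.

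The comparison of mice at 2 months with and without hyperovulation asks which receptors differ in cumulus cells when follicles have grown under exogenous gonadotropin. Of the 7 receptors, Nr5a1 alone was called, and it was higher after hyperovulation. In the 5 hyperovulated mice, Nr5a1 was at 252, 186, 219, 172 and 137 CPM (medians of a mouse's libraries). In the 8 NoH mice its lowest, median and highest values were 53.9, 76.3 and 175 CPM. The groups overlapped, since the NoH mouse 2moNoH7 lay above 2 of the hyperovulated mice. The counts summed per mouse gave a log2 fold change of 1.11 (SE 0.24, 95% interval 0.60 to 1.62), a 2.16-fold difference, with an adjusted p of 0.0369 by edgeR's quasi-likelihood test with Benjamini-Hochberg adjustment. This call was close to its threshold. It was lost when any of 9 of the 13 mice was left out (2moNoH8, 2moNoH10, 2moNoH11, 2moNoH12, 2moNoH13, 2mo1, 2mo2, 2mo34 or 2mo36), with a highest adjusted p of 0.117, while the log2 fold change was 0.96 to 1.3 over all 13 fits.

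Fshr stood apart between the same groups without being called. Its 5 values after hyperovulation were 120, 142, 143, 142 and 130 CPM, and the 8 NoH mice lay between 26 and 98.0 CPM with a median of 72.3. The groups did not overlap, as for 1.1% of the genes tested. The log2 fold change was 0.91 (SE 0.23, 95% interval 0.43 to 1.39), or 1.88-fold, with an adjusted p of 0.0696 by edgeR's quasi-likelihood test. It was called by DESeq2 (adjusted p 0.0125), with libraries as units as in the design of the study (3.75e-05), with the prefix of the complex label as a covariate (0.0391), with all groups of the set in 1 fit (0.00715) and without 2moNoH7 or 2moNoH8 (lowest 0.0344). Over all genes, 0.863% were called (223 of 25828 tested), which is the background of the 1 call among 7 receptors.

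None of the other receptors of cumulus cells was called. Esr1 was at 98.1, 95.7, 94.0, 87.8 and 88.7 CPM after hyperovulation and at 49.7 to 84.8 CPM (median 69.3) without it. These medians did not overlap, but the summed levels of the mice did, with a log2 fold change of 0.42 (SE 0.12) and an adjusted p of 0.123 by edgeR. DESeq2 called this difference at an adjusted p of 0.0273. Esr2 had 418, 385, 473, 434 and 407 CPM after hyperovulation and 363 to 839 CPM (median 523) without it, a log2 fold change of -0.35 (SE 0.16) and an adjusted p of 0.35 by edgeR. Nr5a2 overlapped widely, at 396 to 689 CPM against 269 to 773 CPM (log2 fold change 0.35, SE 0.25). Lhcgr and Pgr were low and their intervals wide, with summed levels of 3.86 ± 5.05 and 0.585 ± 0.560 CPM after hyperovulation and of 1.37 ± 2.28 and 0.952 ± 0.707 CPM without it (SD, n = 5 and 8 mice). The log2 fold change of Lhcgr was 1.52 (SE 0.79, 95% interval -0.14 to 3.17, adjusted p 0.432 by edgeR), a larger estimate than that of Nr5a1, and that of Pgr was -0.83 (SE 0.71, 95% interval -2.32 to 0.66). In the libraries whose complex label starts with B1, the log2 fold changes were 1.12 for Nr5a1 and 1.16 for Fshr, and in those with B2 they were 0.94 and 0.65. The adjusted p by edgeR were 0.264 and 0.283 in B1 and 0.116 and 0.191 in B2, so neither was called within a prefix. The labels do not say what the prefix stands for. The summed level of the cumulus markers was also higher after hyperovulation, with medians over libraries of 16900 against 11700 CPM, while the theca markers were at 211 against 238 CPM, the luteal-like markers at 28.6 against 33.4 and the immune markers at 3.61 against 5.85 CPM. The part of these markers in the receptor values was not tested.

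Genes around these receptors were counted from lists by role. Of 6 measured ligands and hormone subunits, Inhba and Inhbb rose after hyperovulation and 0 fell, with a median log2 fold change of 0.13 over the list and of -0.03 over all genes. They encode the beta subunits of activins and inhibins. Inhbb was at 3440 ± 899 CPM (SD, n = 5 mice) after hyperovulation and at 1130 ± 723 CPM (n = 8) without it, a log2 fold change of 1.61 (SE 0.32, adjusted p 0.0237 by edgeR), and Inhba had a log2 fold change of 2.05 (SE 0.46, adjusted p 0.0411). Of 16 genes that respond to FSH and estradiol in granulosa cells, Inhba and Cyp19a1 rose and 0 fell (median 0.33). Cyp19a1 was at 154 ± 83.2 CPM against 46.7 ± 27 CPM, a log2 fold change of 1.72 (SE 0.34, adjusted p 0.0248 by edgeR), and it was also the 1 gene called of 14 NR5A targets of steroid synthesis (median 0.42). Of 15 other hormone receptors of the follicle, the insulin receptor gene Insr fell, by 0.71 on the log2 scale (SE 0.16, adjusted p 0.0489 by edgeR). None of 29 genes of cAMP signalling, 16 measured genes that respond to LH and the progesterone receptor and 23 coregulators of nuclear receptors was called by edgeR. Cyp19a1 and Inhbb are also in the list of cumulus markers, and were the 2 of its 12 genes that were called.

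In the oocytes of the same complexes, no receptor was called, and neither was any of 25088 genes tested by edgeR (0.0%, with 1064 at an unadjusted p under 0.05, 0 called by DESeq2 and 7 with libraries as units). Esr1 was at 71.6 ± 12.2 CPM (summed per mouse, SD, n = 5) after hyperovulation and at 72.3 ± 11.9 CPM (n = 8) without it, a log2 fold change of -0.01 with a 95% interval of -0.24 to 0.21. Esr2 had a log2 fold change of 0.01 (-0.10 to 0.11) and Nr5a2 one of 0.01 (-0.11 to 0.12). As folds, these intervals were 0.847 to 1.16 for Esr1, 0.932 to 1.08 for Esr2 and 0.924 to 1.09 for Nr5a2. Fshr, Nr5a1 and Lhcgr were below 1 CPM on average in both groups, and their log2 fold changes had wide intervals, at 0.27 (-0.85 to 1.39), -0.03 (-1.02 to 0.97) and -0.59 (-2.38 to 1.2). Pgr had no count.

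Age was compared in both sets, with each age set against the youngest hyperovulated mice. In cumulus cells of the second set, no receptor was called at 4, 9 or 14 months against 2 months, while 0.0%, 0.0081% and 0.159% of all genes were called by edgeR (0, 2 and 39 genes, with 1789, 2124 and 1989 at an unadjusted p under 0.05). DESeq2 called 4, 48 and 105 genes. These comparisons share the mice at 2 months. Fshr had values of 179, 128, 105, 131, 111, 125, 161 and 156 CPM at 4 months, of 118, 86.2, 120 and 88.1 CPM at 9 months and of 112, 104, 115, 82.7 and 90.4 CPM at 14 months. The 5 mice at 14 months lay below the 5 at 2 months (120 to 143 CPM), whereas the mice at 4 months spanned both. The log2 fold change of Fshr against 2 months was 0.02 (SE 0.12) at 4 months, -0.31 (SE 0.14, adjusted p 0.558 by edgeR) at 9 months and -0.42 (SE 0.13, 95% interval -0.69 to -0.16, adjusted p 0.29) at 14 months. Groups that do not overlap were found for 1.69% of the genes tested at 14 against 2 months. With libraries as units, as in the design of the study, the adjusted p at 14 months was 0.0327. Within the B1 and B2 prefixes the log2 fold changes at 14 months were -0.34 and -0.54, and neither was called.

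Nr5a1, Nr5a2, Esr1 and Esr2 had smaller estimates than Fshr at 14 months, with errors of like size. Against 2 months their log2 fold changes in cumulus cells were -0.10 (SE 0.17), -0.04 (SE 0.16), -0.13 (SE 0.13) and -0.10 (SE 0.15), each with an interval that included 0. Whether they differ from Fshr in this was not tested. At 4 months the log2 fold changes were -0.23 (SE 0.17) for Nr5a1, 0.10 (SE 0.15) for Nr5a2, -0.18 (SE 0.10) for Esr1 and 0.27 (SE 0.13, adjusted p 0.745 by edgeR) for Esr2, and at 9 months they were -0.05, -0.01, -0.19 and 0.04. Pgr had -0.13, 0.18 and -1.06 at 4, 9 and 14 months, with SEs of 0.75 to 1.15, and Lhcgr had 0.41 (SE 0.76) at 4 months. Around the receptors, Pappa, which encodes a protease of IGF-binding proteins, was the 1 gene called at 14 against 2 months among 16 genes that respond to FSH and estradiol, with a log2 fold change of 4.47 (SE 0.86, adjusted p 0.0473 by edgeR) and a level of 46.1 ± 71.2 CPM against 2.03 ± 1.84 CPM (n = 5 each). Its SD was larger than its mean. In the other 6 lists by role none was called at any age of the second set.

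In cumulus cells of the first set, no receptor was called in middle or old mice against young mice, with 0.0% and 0.431% of all genes called by edgeR (0 and 107 genes, with 792 and 2321 at an unadjusted p under 0.05). DESeq2 called 8 and 180 genes. There were 2 young labels, 4 middle and 2 old, so these comparisons can show large differences only. Fshr was at 103 and 161 CPM in young mice, at 172, 128, 169 and 90.0 CPM in middle mice and at 174 and 137 CPM in the old labels. These values overlapped, and the log2 fold change of old against young was 0.24 (95% interval -0.28 to 0.76), where the second set gave -0.42 at the same ages. Whether the sets differ in this was not tested. Esr1 was at 79.9 and 88.8 CPM in young and at 110 and 99.4 CPM in old labels (log2 fold change 0.34, SE 0.14, adjusted p 0.489 by edgeR), and in the second set its value at 14 months was -0.13. Nr5a1, Nr5a2 and Esr2 had log2 fold changes of 0.13, 0.21 and 0.01 in old against young cumulus cells, and Lhcgr and Pgr had 0.19 (SE 0.54) and -1.74 (SE 1.34). For middle against young mice the values were 0.10 for Fshr, 0.26 for Esr1, 0.12 for Esr2, 0.24 for Nr5a1 and 0.13 for Nr5a2, with SEs of 0.16 to 0.25, and 0.35 and -0.55 for Lhcgr and Pgr, with SEs of 1.28 and 1.34. One gene of the 15 measured that respond to LH and the progesterone receptor, Adamts1, a protease of the ovulating follicle, was called lower in old than in young cumulus cells (log2 fold change -1.03, SE 0.17, adjusted p 0.0424 by edgeR), and it is named here after its value was seen.

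Calorie restriction was compared with the middle mice of the same age. In cumulus cells no gene of 26487 was called by edgeR (0.0%, with 2118 at an unadjusted p under 0.05), whereas DESeq2 called 202 and the fit with libraries as units 903. Esr1 was at 54.3, 57.2 and 85.1 CPM in the 3 CR mice and at 98.4, 107, 115 and 87.9 CPM in the 4 middle mice. All CR mice lay below all middle mice, as for 9.62% of the genes tested in either direction. The log2 fold change was -0.49 (SE 0.15, 95% interval -0.81 to -0.17, adjusted p 0.435 by edgeR). Fshr (119, 86.6 and 143 CPM in CR mice) overlapped with the middle mice, with a log2 fold change of -0.40 (SE 0.21). Nr5a1, Esr2 and Nr5a2 had log2 fold changes of -0.23, -0.29 and -0.11, and their groups overlapped. Pgr had -1.54 (SE 1.09). None of the genes in the 7 lists by role was called.

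In oocytes the same comparison called many genes. Over all genes 7.61% were called by edgeR (2061 of 27072), and no receptor was among them. Esr1 was at 77.6, 133 and 152 CPM in CR mice and at 97.1, 82.3, 57.2 and 95.6 CPM in middle mice, as medians of a mouse's libraries, of which CR1 lay inside the range of the middle mice. With counts summed per mouse the CR mice lay at 100 to 160 CPM and the middle mice at 56.3 to 92.3 CPM, without overlap, and the log2 fold change was 0.61 (SE 0.19, 95% interval 0.19 to 1.02, adjusted p 0.0792). Nr5a2 was at 86.8, 90.6 and 83.1 CPM against 65.9, 67.0, 59.3 and 70.5 CPM, a log2 fold change of 0.41 (SE 0.12, adjusted p 0.0703 by edgeR), without overlap in either measure. Summed levels of the mice did not overlap for 22.2% of the genes tested, so such a separation was common. DESeq2 called Esr1 and Nr5a2 at adjusted p of 0.0169 and 0.0135. With the complex that was left out put back, only 4 genes were called in all, Esr1 had a log2 fold change of 0.65 (adjusted p 0.17 by edgeR) and that of Nr5a2 turned to -0.23. Without Middle3, which rested on 1 complex, edgeR called Esr1 and Nr5a2 higher (adjusted p 0.0369 each) and Nr5a1 lower (0.0293). With all mice, Nr5a1 had a log2 fold change of -1.32 (SE 0.63, adjusted p 0.241), at summed levels of 4.0 ± 1.52 against 9.0 ± 7.98 CPM. Lhcgr was at 0.305 ± 0.291 against 6.54 ± 12.2 CPM, with a log2 fold change of -4.33 (95% interval -7.56 to -1.09, adjusted p 0.104 by edgeR), and without Middle4 this was 0.44. Fshr had 0.55 (95% interval -0.72 to 1.81) and Esr2 0.04 (-0.19 to 0.26), and Pgr had no count. Among genes that respond to LH and the progesterone receptor, Ptgs2 and Hif1a were called higher in CR oocytes (log2 fold changes 1.90 and 0.42), 2 of 14 measured and named after their values were seen, and 0 were called in the other 6 lists by role. The depth of the CR oocyte libraries was also higher, with a median of 3578882 against 2332126 counts, while the summed cumulus markers of these libraries were lower, with medians of 199 against 292 CPM. The part of depth and of these markers in the receptor values was not tested.

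**Figure D2:**
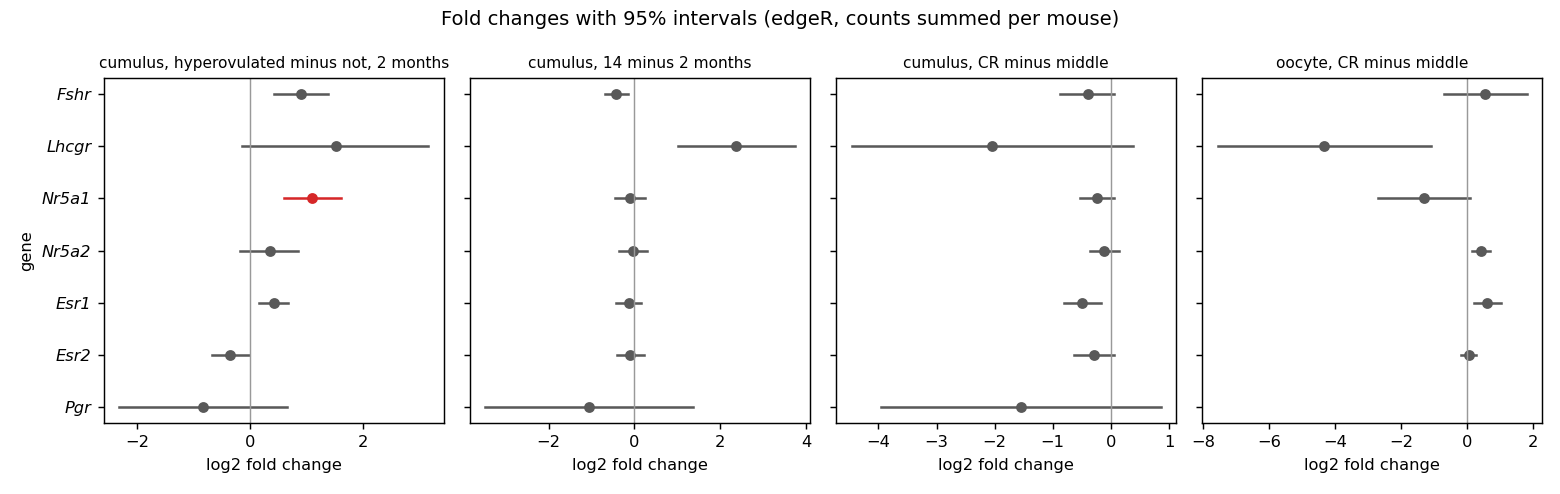
Log2 fold changes of the 7 receptors in 4 comparisons, with 95% intervals from edgeR on counts summed per mouse. The red point passed an adjusted p of 0.05 and the grey points did not. Nr5a1 after hyperovulation (1.11) is the only red point, and the intervals of Lhcgr and Pgr are the widest in each panel in which both were tested.

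Lhcgr counts were spread unevenly over complexes. In the second set its median over the libraries of a mouse was at most 27.5 CPM, and 21 of 32 NoH libraries, 12 of 24 at 2 months and 3 of 16 at 14 months had no count of it. Libraries with more than 3 counts made up 6.25% in NoH mice, 20.8% at 2 months, 25% at 4 months, 31.2% at 9 months and 56.2% at 14 months. In the first set, where the libraries were deeper, the share was 60% in young and in middle mice, 62.5% in old and 84.0% in CR mice. The part of depth in these shares was not tested.

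The highest cumulus library of a group held between 18.2% (CR mice) and 74.1% (9 months) of the Lhcgr counts of that group. At 9 months, 1 complex of the mouse 9mo23 held 561 of the 757 counts in 16 cumulus libraries (856 CPM), and its oocyte had 3. In that complex the theca and interstitial markers summed to 1560 CPM against a median of 221 CPM over the libraries of the set. They were led by Cyp11a1, which encodes the enzyme that starts steroid synthesis, and 7 of the 8 had counts. Among them Cyp17a1 was at 177 CPM against a median of 0.467 CPM. Insl3 was at 0, which was also its median in every cumulus group. The luteal-like markers summed to 1130 against 34.9 CPM, led by Sfrp4. The 7 immune markers were at 0, the stroma markers at 22.2 against 36 CPM, and the cumulus markers at 14900 against 15900 CPM. The next highest complexes, of 14mo37 (184 CPM) and 9mo24 (174 CPM), had theca markers at 414 and 213 CPM and luteal-like markers at 167 and 104 CPM, below those of 9mo23, and cumulus markers at 23900 and 16000 CPM. In the first set, the highest were in Middle4 (161 CPM), Old1_2 (137 CPM), Young1 (130 CPM) and again Middle4 (129 CPM), with theca markers at 373, 715, 338 and 1320 CPM in the same order, against a median of 231 CPM in that set. Their luteal-like markers were at 307, 481, 99.9 and 545 against 46.3 CPM. The last of them also had stroma markers at 119 against 36.5 CPM, 179 Lhcgr counts in its oocyte library and Insl3 above 0. The next complex, of Old3 (103 CPM of Lhcgr), had theca markers at 215 CPM, below the median of 231 CPM. Its luteal-like markers (78.4 against 46.3 CPM), stroma markers (54.0 against 36.5) and immune markers (14.6 against 2.92) were above their medians. The complexes were picked here by their Lhcgr values, and the part of theca or luteal cells in them was not tested.

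**Figure D3:**
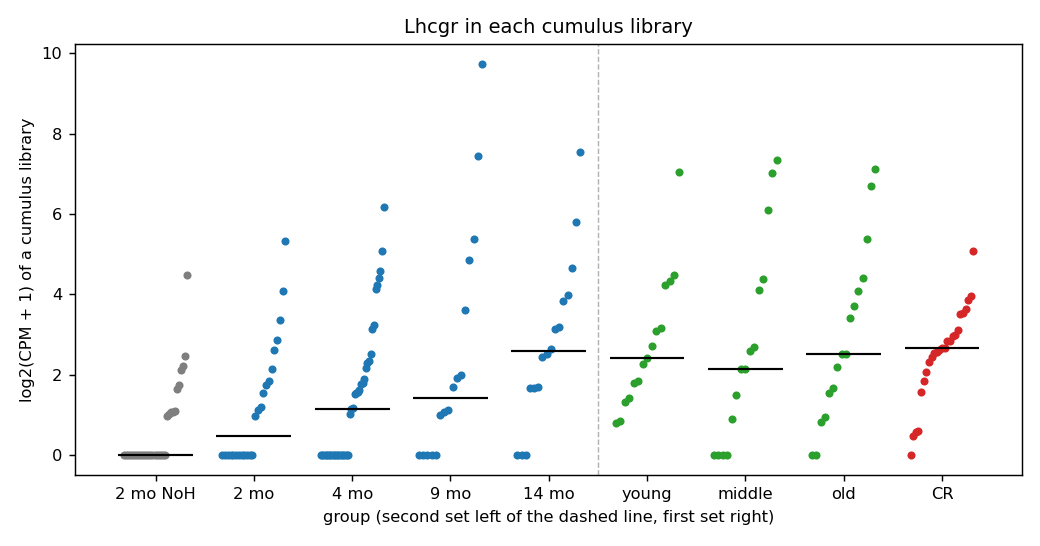
Lhcgr in each cumulus library, as log2(CPM + 1), by group. Each point is 1 library, sorted within its group, and black lines are medians. A single library at 9 months stands at 856 CPM, and 21 of the 32 NoH libraries lie at 0.

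The tests of Lhcgr moved with single mice. Against 2 months its log2 fold change was 3.82 (SE 0.95, adjusted p 0.252 by edgeR) at 9 months and 2.37 (SE 0.65, adjusted p 0.215) at 14 months. Without 9mo23 the first was 2.15 with an adjusted p of 0.669, and without 9mo22 it was called at an adjusted p of 0.033. Leaving out each mouse gave 1.59 to 3.37 at 14 months and no call. Within the B1 prefix the values at 9 and 14 months were 1.60 and 3.74, and within B2 they were 3.95 and 0.14. In CR against middle cumulus cells the log2 fold change was -2.04 (SE 1.09, adjusted p 0.681), which turned to 0.58 without Middle4. Medians of a mouse's libraries were 0, 0.587, 0.482, 4.45 and 0.957 CPM at 2 months and 4.88, 10.5, 27.5, 3.47 and 4.08 CPM at 14 months, so all 5 mice at 14 months lay above 4 of the 5 mice at 2 months by this measure, and 2mo35 lay among them. The mice 14mo38 and 14mo39 had only 2 cumulus libraries each. The 27.5 CPM of 14mo39 is the middle of a library without a count and a library at 55.0 CPM.

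The comparison of the cell types of a complex asks in which of them each receptor's RNA is found. Here both cell types were scaled together and the mouse was a block, and 78.9% of all genes with hyperovulation and 80.4% without it were called by edgeR, so a call alone says little. In hyperovulated mice at 2 months 6 of the 7 receptors were lower in oocytes, all but Esr1, and in NoH mice these 6 were also lower and Esr1 was higher. Fshr was at 0.738 ± 0.659 CPM in oocytes and at 112 ± 9.90 CPM in cumulus cells (SD, n = 5 mice), a log2 fold change of -7.11 (SE 0.28, adjusted p 1.84e-16). Nr5a1 was at 0.789 ± 0.373 against 160 ± 45.6 CPM (log2 fold change -7.56, SE 0.22). These were the widest differences among the members. Nr5a2 and Esr2 were present in both cell types, at 70.3 ± 4.30 against 472 ± 112 CPM for Nr5a2 (-2.72, SE 0.13) and at 181 ± 12.1 against 368 ± 33 CPM for Esr2 (-1.02, SE 0.11, adjusted p 1.57e-08). Lhcgr was at 0.0676 against 3.23 CPM, so its oocyte level was near the floor. Pgr had 0 counts in these oocytes and 10 counts in the cumulus libraries of the group. Its call was made on those few counts, and DESeq2 gave an adjusted p of 0.0917.

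Esr1 was the 1 receptor that was not lower in oocytes. It was at 84.9 ± 16.4 CPM in oocytes and at 77.2 ± 7.80 CPM in cumulus cells of hyperovulated mice (log2 fold change 0.12, SE 0.13, 95% interval -0.14 to 0.39). In NoH mice it was at 85.4 ± 13 against 58.1 ± 7.59 CPM (n = 8), a log2 fold change of 0.55 (SE 0.11, adjusted p 0.000188 by edgeR). Esr1 was called in all 8 fits that left out a NoH mouse. In hyperovulated mice its direction depended on the scaling of the cell types, and in NoH mice it stayed positive under both kinds of factor. The median log2 fold change of all genes was -0.069 with and -0.176 without hyperovulation, and with upper quartile factors it was -0.386 and -0.453, where Esr1 had -0.19 and 0.25. Without any factor, as plain CPM, the oocytes held 68.3% to 103% of the cumulus level in the 5 hyperovulated mice and 79.1% to 159% in the 8 NoH mice. Fshr, Nr5a1, Nr5a2, Esr2 and Lhcgr were lower in oocytes under both kinds of factor. Of the lists by role, the genes that respond to FSH and estradiol (16 of 16) and the NR5A targets (14 of 14) were lower in oocytes of hyperovulated mice. Of 29 genes of cAMP signalling and 23 coregulators, 11 and 10 were higher and 16 and 8 lower. Over all genes 78.9% were called in either direction by edgeR, and the list counts were not tested against the shares by direction.

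**Figure D4:**
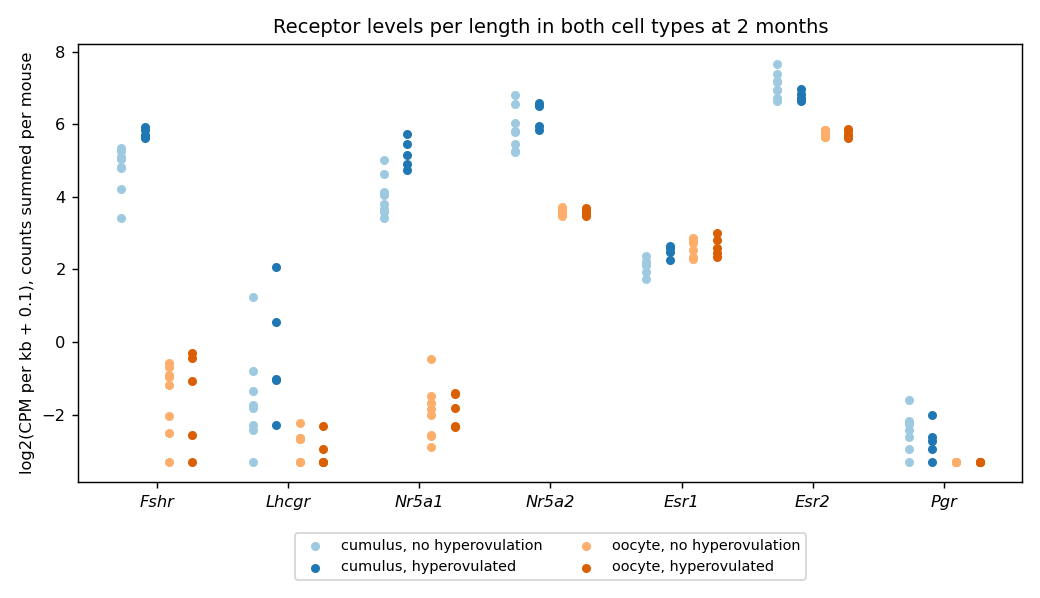
Receptor levels per kb in both cell types of mice at 2 months, as log2(CPM per kb + 0.1), with the cell types scaled together and counts summed per mouse. Each point is 1 mouse, and points at the bottom are mice with no count. Esr1 and Esr2 are closer between the cell types than Nr5a2, Fshr and Nr5a1. In oocytes, Fshr, Nr5a1, Lhcgr and Pgr lie lowest.

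Within oocytes the order per length was Esr2, Nr5a2, Esr1, Fshr, Nr5a1, with means of 45.9, 10.2, 4.85, 0.197 and 0.110 CPM per kb at 2 months. The ranges of Fshr and Nr5a1 over mice overlapped, and Fshr was above Nr5a1 in 3 of 5 mice, while the neighbours above them did not overlap. The oocyte levels of Fshr, Nr5a1 and the cumulus markers were also taken as shares of the cumulus level of the same mouse. In the second set the markers summed to 0.304% to 0.562% of their cumulus level over the 5 groups, Fshr to 0.436% to 1.01% and Nr5a1 to 0.369% to 1.19%, as means over mice. Both were above the markers in each of these 5 groups, with Fshr at 0.436% against 0.304% at 2 months and at 1.0% against 0.346% at 9 months, and Nr5a1 at 1.19% against 0.562% at 14 months. In the first set the markers were at 3.07% to 5.44%, Fshr at 3.23% to 7.57% and Nr5a1 at 2.60% to 6.66%. There Fshr was above the markers in CR mice (7.57% against 3.07%) and below them in the 3 other groups, while Nr5a1 was above them in these 3 and below them in CR mice. None of these differences was tested. The shares of Nr5a2 (9.73% to 15.5%), Esr2 (28.7% to 39.5%) and Esr1 (74.0% to 173%) were above these in both sets. Across the 73 oocyte libraries of the first set, the Spearman correlation with the summed cumulus markers was 0.86 for Nr5a1, 0.709 for Fshr, 0.648 for Nr5a2, 0.423 for Esr2 and 0.057 for Esr1. In the 127 of the second set, it was 0.273 for Nr5a1 and at most 0.124 for the others. Libraries share their mouse and depth, and the part of cumulus RNA in these oocyte levels was not tested.

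Nr5a1 was at low levels in the oocytes of the second set, and higher in some of the first set, where the medians of the mice reached 11.8 CPM (Middle1) and a single library 52.1 CPM. In the second set its medians were 3.02, 2.77, 3.38, 0.440 and 0.447 CPM at 14 months and 0.238, 0.487, 0.680, 0.460 and 0.458 CPM at 2 months, so 3 of 5 mice lay above all mice at 2 months. The log2 fold change was 1.53 (SE 0.48, adjusted p 0.251 by edgeR), against a background of 0.177% of genes called. Within the B1 prefix it was 2.40 and called at an adjusted p of 0.00781, and within B2 it was -0.37 with an adjusted p of 0.906. The summed cumulus markers of these oocyte libraries had a median of 84.8 CPM at 14 months and of 46.5 CPM at 2 months, and their part was not tested. In the same comparison Inha, an inhibin subunit made by granulosa cells, rose by 1.44 and Hsd3b1, an enzyme of steroid synthesis, by 1.75 on the log2 scale (adjusted p 0.0266 and 0.0385 by edgeR), both named after their values were seen. Inha is itself in the list of cumulus markers, and with a median of 23.8 CPM it was the highest of them in oocytes at 14 months, so its call and the sum of that list are not separate measures. No receptor was called at 4 or 9 months (0.0% and 0.0784% of genes called by edgeR, with 1243 and 1773 at an unadjusted p under 0.05, and 2 and 55 called by DESeq2), and the oocyte levels of Esr2 and Nr5a2 at 14 months gave log2 fold changes of -0.02 each, with intervals of -0.13 to 0.09 and -0.19 to 0.15. Esr1 was at 86.9 ± 17.3 CPM at 14 months against 71.6 ± 12.2 CPM at 2 months (summed per mouse, n = 5 each), groups that overlapped, with a log2 fold change of 0.28 (95% interval 0.01 to 0.54) and an adjusted p of 0.478 by edgeR. Fshr had 0.56 (-0.57 to 1.70). At 4 and 9 months the log2 fold changes were 0.10 and 0.12 for Esr1, -0.01 and -0.06 for Esr2, -0.03 and 0.09 for Nr5a2, 0.54 and 0.61 for Fshr and 0.52 and 0.46 for Nr5a1, each with an interval that included 0. Lhcgr had 0.31 (SE 1.0) at 4 months and was counted in too few oocytes to be tested at 9 and 14 months, and Pgr had no count.

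In oocytes of the first set, no receptor was called in middle or in old against young mice, and neither was any other gene by edgeR (0.0% and 0.0%, with 667 and 2257 genes at an unadjusted p under 0.05). DESeq2 called 0 and 37 genes. Lhcgr had a log2 fold change of 4.03 (SE 0.97, adjusted p 0.506) in old against young oocytes, and of 1.0 without the label Old1_2. Nr5a2 was at 61.1 and 96.1 CPM in the old labels and at 58.7 and 53.7 CPM in the young (log2 fold change 0.50, SE 0.23). Fshr, Nr5a1, Esr2 and Esr1 had log2 fold changes of 0.89 (SE 0.34), 0.71 (SE 0.33), 0.21 (SE 0.21) and -0.38 (SE 0.23) in old against young oocytes. In middle against young oocytes the values were 0.83, 0.75, 0.12 and -0.25 for these 4 genes and 0.13 for Nr5a2, each with an interval that included 0. Lhcgr had 4.18 (SE 1.85) there, and -0.61 without Middle4. Pgr was too rarely counted to be tested. Libraries as units, the design of the study, called Lhcgr, Esr2 and Nr5a2 higher in old oocytes. Without Old3, edgeR called Fshr, Lhcgr, Nr5a1 and Nr5a2, and without Young1 it called Lhcgr, here and in cumulus cells. Each of these fits has 1 label left in a group, which is assumed to vary like the labels of the other group. The cumulus markers in these libraries were at medians of 678 against 133 CPM, and their part was not tested.

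The level of Esr1 in oocytes relative to the cumulus cells of the same mouse was on average highest in the CR mice. As plain CPM, it was 156%, 191% and 171% in the 3 CR mice and 93.1%, 79.4%, 51.1% and 92.2% in the 4 middle mice, of which the lowest, Middle3, rested on 1 complex. The CR mice lay above all middle mice. Of 13467 genes with counts in both cell types of all 7 mice, the ratios did not overlap for 20.5% in either direction and for 9.05% with CR mice above, so such a separation was common. Among the other labels of both sets the highest were 2moNoH12 (159%), within their range, and Young1 (152%). The difference of the mean log2 ratios was 1.17 (CR minus middle), with SDs of 0.14 and 0.41. For Nr5a2 it was 0.56, also without overlap, and for Esr2 0.31, with overlap. These 3 genes were chosen after their values had been seen, and no test is given. In 22 of 25 CR complexes Esr1 was higher in the oocyte than in its cumulus cells, against 5 of 14 middle complexes, which share mice.

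**Figure D5:**
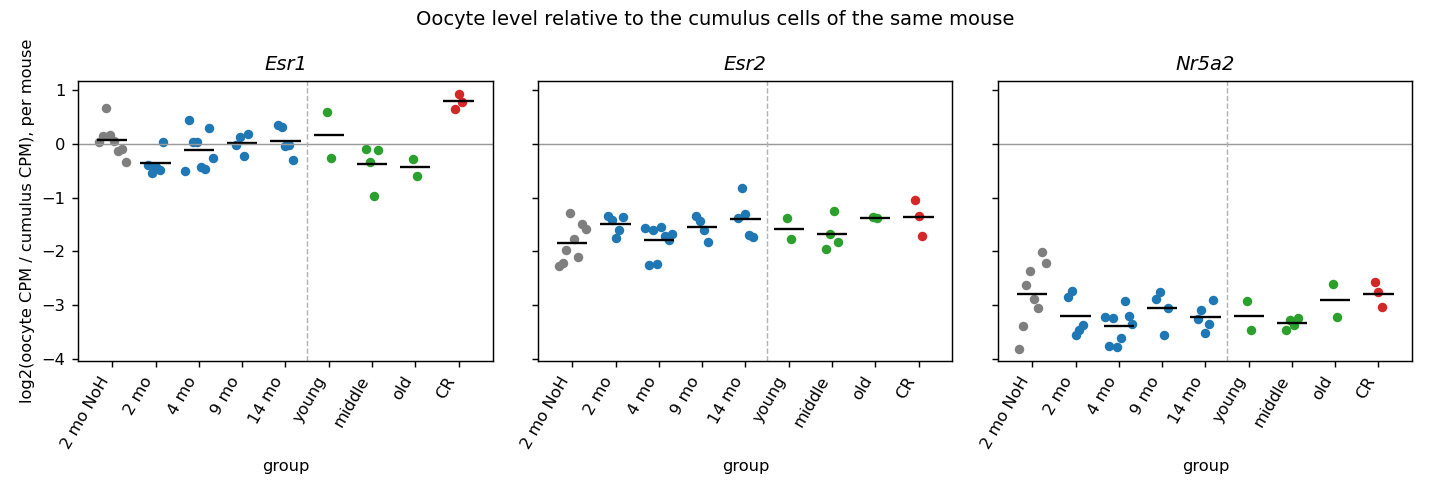
Log2 ratio of the oocyte level to the cumulus level of the same mouse, as plain CPM, for Esr1, Esr2 and Nr5a2. Points are mouse labels and black lines group means. For Esr1 the 3 CR mice lie between 0.65 and 0.93, and the middle mice between -0.97 and -0.10.

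How far mice and complexes differed was also read from the libraries, as shares of the variance of log2(CPM + 1). In cumulus cells of the second set, differences between groups took 42.1% of the variance of Nr5a1 and 38% of that of Fshr, but 12.4% for Esr2 and 13.7% for Esr1. Nr5a2 varied mostly between mice of a group, with 54.4%. Its mouse medians were higher with the prefix B2 than with B1 at 2 months (631 and 689 against 396 to 605 CPM). The same held at 4 months (553 to 749 against 471 to 550) and 9 months (578 and 700 against 393 and 512). In NoH mice and at 14 months the prefixes overlapped, and the part of the prefix was not tested. Lhcgr varied mostly within mice, with 62.2%, against 68.9% for Pgr. At such low counts this share also holds counting error. In oocytes of the second set, groups took at most 8.07%, for Nr5a1. In cumulus cells of that set, the share within mice was 71.3% for Esr1, 37.5% for Fshr and 24.6% for Nr5a2. The SD within mice in these cumulus libraries was 1.73 for Lhcgr, 0.487 for Fshr, 0.374 for Esr1 and 0.276 for Nr5a2 on the log2 scale. Of the 6 receptors with any count in oocytes of the second set, Esr2 varied least, with an SD of 0.141 on the log2 scale over 127 libraries.

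Among members, Nr5a2 and Esr2 moved together most, with a Pearson correlation of 0.711 over the 30 mice of the second set after the group means were taken away, and Nr5a1 was little related to either (-0.117 and -0.018). By the same correlation of log2(CPM + 1) without group means, of 12031 genes with a mean of at least 5 CPM, those most like Fshr were Adamts5 (0.84), B3galnt1 (0.804) and Slc8a1 (0.80). Those most like Nr5a1 were Loxl1 (0.872), Eri3 (0.856) and Igsf3 (0.852), and those most like Nr5a2 were Rapgef4os3 (0.886), Zkscan8 (0.876) and Srsf7 (0.84). For Esr2 they were Rapgef4 (0.86), Itsn1 (0.84) and Rapgef4os2 (0.837), and for Esr1 the highest was 0.626, of Nrep. The mice share depth and preparation, and these values describe likeness only. Differences between the B1 and B2 prefixes were not taken away, and their part in these correlations was not tested. Lhcgr was most like 5031410I06Rik (0.90), over mice of which few had high complexes.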

How the data were processed

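RamDA-seq libraries of single oocytes and of pools of cumulus cells were deposited as 2 sets of tables. The authors trimmed and mapped the reads with HISAT2 2.0.5 to GRCm38 and counted them with featureCounts 1.5.1 over GENCODE vM15, sharing reads with several hits among them, so the deposited values are expected counts of which 36.8% and 35.1% of the nonzero values were not whole. The authors also deposited RPKM, from which the length of each gene was taken and which served as an alternative unit. The RPKM of the CR libraries did not match their counts, with 0.763% of values within 0.1%. They were not used for the gene lengths, but they were part of the alternative unit. No column of other samples was present (0).

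Expected counts were summed per mouse label and then rounded. Genes counted in 5 or more of the libraries compared were tested by edgeR 4.0.16 in R 4.3.3 (TMM factors, quasi-likelihood test, Benjamini-Hochberg adjustment, threshold 0.05). Oocytes and cumulus cells were compared within complexes, with the mouse as a block since both come from 1 animal. Signs are hyperovulated minus NoH, older minus younger, CR minus middle and oocyte minus cumulus. Levels are CPM on TMM library sizes, scaled within a set and a cell type unless both cell types are said to be scaled together, and levels of the sets are not compared by a test. Libraries as units, which is the design of the study, DESeq2 1.42.0, other factors, filters and models and leaving out each mouse were alternatives. The procedure was tested on simulated data.

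Symbols (for 43429 of 43633 identifiers) and coordinates came from GENCODE vM21, and promoters from RefSeq, which gave 6 of the 7 genes. Nr5a1 is named only. The 7 receptors are named in every comparison. Of the lists by role, called genes with a mean of at least 5 CPM were named, up to 3 per list, in the cumulus comparisons of hyperovulation, of 14 months and of CR, and otherwise only counts were given unless stated. The 3 genes most correlated with each receptor were listed. Members and lists were chosen with earlier results of these data known. Floors are 3 counts. Totals per library ranged from 510029 to 4536690.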

Additional observations from a re-analysis of the deposited data

Results flagged for a closer look

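In 12 of 74 combinations of a receptor, a cell type and a group of 4 to 8 mice (16.2%), the highest or lowest mouse stood far from the others. This was judged on the median of its libraries. The rule flags about 5% of normal values, which is no measure of chance here. Many values lie at 0, and the receptors share mice. For Lhcgr in cumulus cells this was Middle4 at 98.3 CPM (others 0.0 to 16.4), 4mo4 at 17.3 CPM (0.0 to 3.18), 2mo35 at 4.45 CPM (0.0 to 0.957) and 2moNoH9 at 3.02 CPM (0.0 to 0.511). Middle4 was also the highest for Lhcgr in oocytes, at 11.9 CPM (0.0 to 0.946), and for Pgr in cumulus cells, at 0.835 CPM where the other 3 middle mice were at 0.0. Pgr was further high in 2moNoH10, at 2.70 CPM (0.0 to 1.2), and in 14mo39, at 1.83 CPM with the others at 0.0. Esr2 stood at 709 CPM in the cumulus cells of 4mo26 (434 to 522), and Esr1 at 103 CPM in those of 14mo40 (77.9 to 82.7). Nr5a1 was lowest in the cumulus cells of 14mo41, at 137 CPM (186 to 200), and highest in the oocytes of 2moNoH7, at 2.29 CPM (0.0 to 1.08), the mouse that also had the highest Nr5a1 in NoH cumulus cells. Levels of Lhcgr and Pgr were near the floor in most mice, where a few counts set a mouse apart. The causes were not tested.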

How the results depend on the processing

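Of the log2 fold changes of receptors under alternatives other than leaving out a mouse, 730 kept their direction where called and their side of the threshold, 31 passed it newly and 3 no longer passed it. In cumulus cells after hyperovulation, where 1 receptor was called, libraries as units gave 4, DESeq2 3, all groups in 1 fit 3, the label prefix as a covariate 2, and each prefix alone (B1 or B2) 0. The 9 months comparison gave 1 with libraries as units and 1 with all genes with any count, the 14 months comparison 2 and 1, and CR against middle cumulus cells 1 with libraries as units, where edgeR on mice called 0. In oocytes, 14 months gave 1 within B1, old against young 3 with libraries as units and 1 with any count, and CR against middle 4 with libraries as units, 3 with any count, 2 by DESeq2, 2 with filterByExpr and 1 with all groups in 1 fit, against 0. Leaving out each mouse gave 0 to 2 calls for hyperovulation, 0 to 1 at 9 months, 0 to 1 for old against young cumulus cells, 0 to 4 for old against young oocytes, 0 to 3 for CR oocytes and 5 to 6 of 6 between cell types at 2 months, where Pgr was not tested in 2 of 5 fits. Without the replicate block on mice, the cell types gave 6 and 7 calls, as with it, and the block changed no other call. Over all genes, the 223 calls for hyperovulation became 3090 with libraries as units, 717 by DESeq2, 615 with the prefix as a covariate, 498 with all groups, 10 in B2 and 1 in B1. The 2061 of CR oocytes became 7552 with libraries as units, 3475 by DESeq2 and 4 with the left-out complex. The cause of these moves was not tested. Most cumulus libraries of the second set hold at most 3 counts of Lhcgr and of Pgr, which limits the precision of their values.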
